A study of Arabidopsis thaliana with 4 samples.

Results

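The genes described here belong to the families that loosen, remodel or build the polysaccharides of the plant cell wall in Arabidopsis thaliana. They were chosen by name: a probe set was taken when the array annotation listed it to 1 gene whose symbol begins EXPA, EXPB, EXLA, EXLB, XTH, CESA or CSL. This gave 34 genes, each with 1 probe set, out of 22746 probe sets in all. They comprised 10 α-expansins (EXPA), 4 β-expansins (EXPB), 3 expansin-like A genes (EXLA), 1 expansin-like B gene (EXLB), 9 xyloglucan endotransglucosylase/hydrolases (XTH) and 7 cellulose synthase-like genes (CSL). The TAIR10.1 reference table holds 97 genes with such symbols, and its 7 CESA genes, the catalytic subunits of cellulose synthase, were not among the named probe sets and are not analysed here.

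The samples were plants carrying an inverted repeat made from the open reading frame of myosin XI-K, an actin-based motor, in 3 independent groups (RNAi groups 1, 2 and 3), and 1 control group with a constitutively expressed GUS reporter transgene. RNA of each group came from rosette leaves, cauline leaves and flowers mixed in equal proportions and was hybridised to 1 Affymetrix array. The labels do not state which promoter drives the repeat, how old the plants were or how many were pooled. The series was set up to compare myosin transcripts between silenced and control plants.

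The values deposited for the GUS control matched those of RNAi group 1 in all 22810 rows, so the pair was treated as a single array, named the shared array. Every difference is the mean of RNAi groups 2 and 3 (n = 2) minus this array (n = 1), and since it bears both a control and an RNAi label, none is assigned to silencing. The silenced gene itself has no named probe set, so the labels could not be checked against it. The leaf markers RCA and LHCB4.1, the 2 of 5 with a named probe set, gave signals between 14452.3 and 22392.2 on the 3 arrays, while 0 of 8 flower markers had a named probe set. In mixed tissue, fewer cells of a type and less RNA per cell cannot be told apart.

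Growing plant cells enlarge when their wall yields. Expansins loosen the contacts between cellulose and other wall polymers without cutting them, and XTH enzymes cut and rejoin the xyloglucan chains that coat cellulose. The CSL families include enzymes that make the backbones of non-cellulosic polysaccharides in the Golgi, with CSLA proteins acting on mannans and CSLC proteins on xyloglucan. EXPA7 and EXPA18 are known from root hairs, a cell type that the sampled tissues lack, and serve here as examples of dim probe sets.

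EXPA7 had signals of 1.8 and 1.7 in RNAi groups 2 and 3, against 11.6 on the shared array. EXPA18 had 7.7 and 28.5, against 13.0. Both lay under a signal of 32 on all 3 arrays, a level below which between 24.9% and 27.6% of the signals of each array fell. EXPA7 lay below the shared array in both RNAi groups and EXPA18 on either side of it, with log2 differences of -2.73 (SE 1.25) and 0.19 (SE 1.23), and both became 0.0 when signals under 32 were set to 32. In this dim range a several-fold ratio between arrays amounts to fewer than 32 signal units. Of 5 root markers looked for, only PYK10 had a named probe set, with 41.9 and 45.7, against 22.1.

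Of the 34 genes, 6 were under 32 on all arrays: EXPA7, EXPA18, EXPA21, EXPA24, XTH21 and XTH26. A further 5 genes, EXPB5, EXLA3, XTH20, XTH29 and XTH33, were under 32 on at least 1 array. The other 23 were above it throughout, including all 7 CSL genes. The plot of signals by gene shows how the families fall on both sides of this level.

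**Figure D1:**
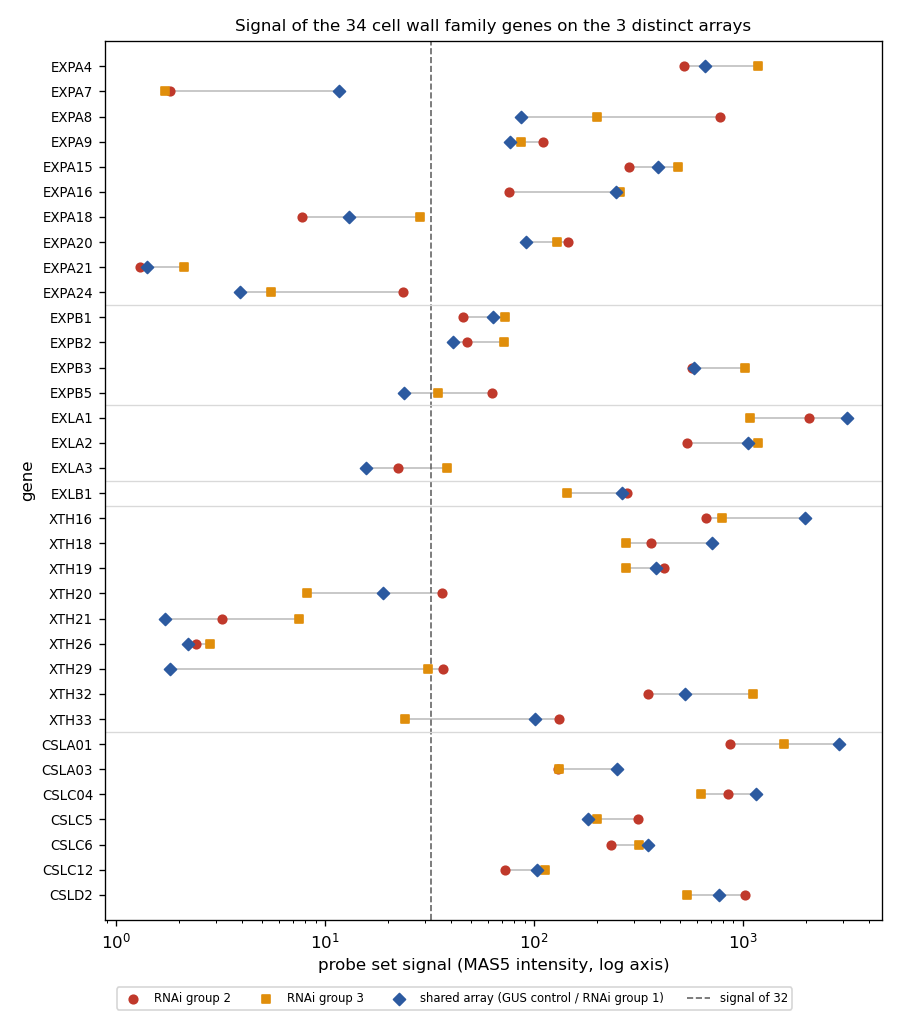
Signal of each of the 34 genes (rows, grouped by family) on a log axis in MAS5 intensity units, with circles for RNAi group 2, squares for RNAi group 3 and diamonds for the shared array; the dashed line marks a signal of 32. EXPA7, EXPA18, EXPA21, EXPA24, XTH21 and XTH26 lie left of the line on all arrays, and every CSL gene lies right of it.

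For the test, probe sets whose mean log2 signal lay above the 30th percentile of all probe sets (5.307, a signal of 39.6) were kept, which left 24 of the 34 genes among 15922 probe sets. Tested with limma over all of these, with Benjamini-Hochberg adjustment, 0 of the 24 genes were higher and 0 lower, against 0.0314% and 0.0% of all probe sets; each of the 24 had a limma adjusted p of 0.9999. At an unadjusted limma p under 0.05 there was 1 higher gene, EXPA8, and 2 lower genes, XTH16 and CSLA01. The corresponding shares of all probe sets were 0.923% and 0.301%. In the fit without the filter the genes were XTH29 as higher and XTH16 and XTH18 as lower, so EXPA8 and CSLA01 no longer reached this level. The share of all probe sets was not counted for that fit, so these calls are not read as a result about the families. XTH29 was dim, with 36.6 and 31.0 in RNAi groups 2 and 3, against 1.8 on the shared array. Its log2 difference was 0.10 with signals under 32 set to 32. The labels call the RNAi groups independent, and with 1 residual degree of freedom the test rests largely on the spread borrowed from other probe sets.

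In 5 of the 24 genes both RNAi arrays lay above the shared array (20.8%, against 30.2% of all kept probe sets), and in 7 both lay below it (29.2%, against 23.3%). The 5 were EXPA8, EXPA9, EXPA20, EXPB2 and CSLC5. The 7 were EXLA1, XTH16, XTH18, CSLA01, CSLA03, CSLC04 and CSLC6. For the remaining 12 genes the shared array lay between the RNAi groups. Over all 34 genes without the filter, 11 had both RNAi arrays above (32.4%, against 32.3% of all probe sets) and 8 both below (23.5%, against 24.2%), so these shares were near those of the array as a whole. A difference of at least 2-fold in both RNAi arrays was found for EXPA8 alone as higher (4.17%, against 1.27% of kept probe sets) and XTH16 alone as lower (4.17%, against 0.364%).

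**Figure D2:**
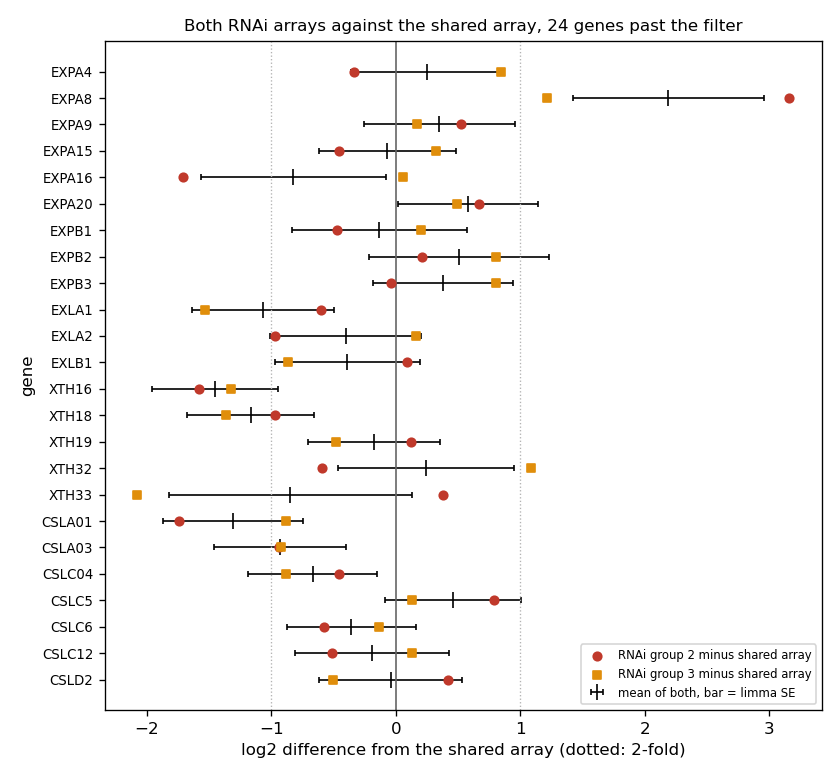
Log2 difference from the shared array of RNAi group 2 (circles) and RNAi group 3 (squares) for the 24 genes past the filter, with the mean of both as a tick and the limma SE as a bar; dotted lines mark 2-fold. EXPA8 lies right of the 2-fold line in both groups and XTH16 left of it in both, while for 12 genes the groups fall on either side of 0.

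Among the α-expansins, EXPA8 stood highest above the shared array. It had signals of 774.1 in RNAi group 2 and 201.1 in RNAi group 3, against 86.4 on the shared array. Both RNAi arrays were above it, by 8.96-fold and 2.33-fold, and the mean log2 difference was 2.19 (SE 0.77; limma adjusted p = 0.9999). The RNAi groups themselves were 3.85-fold apart. Of the 12 pollen markers looked for, 3 had a named probe set, ACT12, ANX1 and ANX2, and none of these was listed at 0. Their summed signal was 80.9 in RNAi group 2 and 22.6 in RNAi group 3, against 35.7 on the shared array. Most of that sum came from ACT12, with 46.3 and 11.8 in RNAi groups 2 and 3, against 31.0. ANX1 had 11.3 and 2.2, against 1.5, and ANX2 had 23.3 and 8.6, against 3.2. These 2 genes thus lay above the shared array in both RNAi groups. ANX1 and ANX2 were under 32 on all arrays and ACT12 on 2 of them, and 0 of the 3 passed the filter. The part of the pollen markers in the EXPA8 difference was not tested.

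EXPA20 and EXPA9 also lay above the shared array in both RNAi groups, by less. EXPA20 had 145.7 and 129.2 in RNAi groups 2 and 3, against 91.9 on the shared array (log2 difference 0.58, SE 0.56). For EXPA9 the signals were 110.5 and 86.3, against 76.7 (0.35, SE 0.61). In both genes the difference was close to or below its SE.

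The other α-expansins past the filter split, with RNAi group 2 lowest and RNAi group 3 highest of the 3 arrays in each of EXPA4, EXPA15 and EXPA16. EXPA4 had 522.2 in RNAi group 2 and 1183.4 in RNAi group 3, against 659.7 on the shared array (log2 difference 0.25, SE 0.61). EXPA15 had 286.1 and 490.9, against 392.8, the mean difference nearest to 0 in its family (-0.07, SE 0.55). EXPA16 had 75.7 and 257.8, against 247.3, so that its difference of -0.82 (SE 0.74) came from RNAi group 2 alone. EXPA21 and EXPA24, separated by 4 protein-coding genes in the reference table, were dim. EXPA21 had 1.3 and 2.1, against 1.4, and EXPA24 had 23.6 and 5.5, against 3.9.

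The β-expansins, which share the fold of the α-expansins and include the grass pollen allergens, showed small differences. EXPB3 had 568.3 and 1019.7 in RNAi groups 2 and 3, against 585.0 on the shared array, with RNAi group 3 high and the others close together (log2 difference 0.38, SE 0.56). EXPB2 had 47.5 and 71.5, against 41.0 (0.51, SE 0.72), and EXPB1 had 45.7 and 72.8, against 63.3 (-0.13, SE 0.70). RNAi group 3 gave the highest signal in all 3 of these genes, and RNAi group 3 was the highest array in 37.1% of kept probe sets. EXPB5, just under the filter, had 63.0 and 34.6, against 23.8, and its log2 difference of 0.97 (SE 0.85) became 0.54 with the floor of 32.

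The expansin-like genes resemble expansins in sequence, and wall-loosening activity has not been shown for them. EXLA1 had 2070.7 in RNAi group 2 and 1086.1 in RNAi group 3, against 3138.6 on the shared array. Both RNAi arrays were lower, by 1.52-fold and 2.89-fold (log2 difference -1.07, SE 0.57). EXLA2 had 537.4 and 1182.9, against 1055.0, with RNAi group 2 low and the other arrays close (-0.40, SE 0.61). EXLA3, the immediate neighbour of EXLA1 in the reference table, was dim with 22.4 and 38.3, against 15.6 (0.91, or 0.13 with the floor). EXLB1 had 279.0 and 143.6, against 262.4, so here RNAi group 3 was the low array (-0.39, SE 0.58).

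The XTH genes past the filter held the largest negative difference of all 24 genes and the widest gap between the RNAi groups. XTH16 had 663.9 in RNAi group 2 and 795.1 in RNAi group 3, against 1989.5 on the shared array. The RNAi groups were close to each other and both well below it, by 3.00-fold and 2.50-fold (log2 difference -1.45, SE 0.51; limma adjusted p = 0.9999). XTH18 had 364.2 and 276.0, against 712.1, lower by 1.96-fold and 2.58-fold (-1.17, SE 0.51). When arrays were quantile normalised or centred on their medians, XTH18 also passed 2-fold in both RNAi groups.

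XTH19 is the immediate neighbour of XTH18 in the reference table and did not share its order. It had 418.9 and 275.7, against 384.5, so the shared array lay between the RNAi groups (log2 difference -0.18, SE 0.53). Whether the difference of XTH18 and that of XTH19 differ was not tested. XTH32, of the subgroup predicted to hydrolyse xyloglucan, had 349.2 in RNAi group 2 and 1118.3 in RNAi group 3, against 527.5 (0.24, SE 0.71). XTH33 went the other way, with 131.4 in RNAi group 2 and 24 in RNAi group 3, against 101.2 (-0.85, SE 0.98). Its RNAi group 3 signal was under 32, and the difference was -0.64 with the floor.

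The other XTH genes were dim. XTH29 had 36.6 and 31.0 in RNAi groups 2 and 3, against 1.8 on the shared array, a log2 difference of 4.23 (SE 1.00) that was 0.10 with signals under 32 set to 32. XTH20 had 36.4 and 8.2, against 18.8, on either side of the shared array (-0.12, SE 1.26). XTH21 had 3.2 and 7.5, against 1.7, and XTH26, known from root hairs, had 2.4 and 2.8, against 2.2. None of these genes was above the filter. XTH27, which the annotation lists as EXGT-A3 and the choice by symbol therefore left out, had 3531.4 and 1257.2, against 3508.2, with RNAi group 3 as the low array.

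All 7 CSL genes were past the filter, and 4 had both RNAi arrays below the shared array (57.1%, against 23.3% of kept probe sets). CSLA01, of the mannan synthase family, had 866.5 in RNAi group 2 and 1566.7 in RNAi group 3, against 2893.5 on the shared array. It was lower by 3.34-fold and 1.85-fold (log2 difference -1.31, SE 0.56; limma adjusted p = 0.9999). CSLA03, which takes part in making stem glucomannan, had 130.2 and 132.1, against 250.0. The RNAi groups were almost equal and 1.92-fold and 1.89-fold lower (-0.93, SE 0.53). The 2 named CSLA genes thus had the lowest differences of the family.

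The CSLC genes, whose products make the glucan backbone of xyloglucan, were mixed. CSLC04 had 847.9 and 628.8 in RNAi groups 2 and 3, against 1160.8 (log2 difference -0.67, SE 0.52), and CSLC6 had 234.1 and 318.2, against 349.7 (-0.36, SE 0.52). CSLC5 lay the other way, with 315.0 and 199.6, against 182.1 (0.46, SE 0.54). CSLC12 had 72.7 and 113.3, against 103.6 (-0.19, SE 0.62). Another CSLC gene, listed under the symbol ATCSLC08, and so outside the choice by symbol, had 86.4 and 115.0, against 110.9. Thus 2 of the 4 CSLC genes had both RNAi arrays below the shared array, 1 had both above and 1 was split. CSLD2, needed for normal root hair growth, had 1025.3 and 538.3, against 764.6, the mean difference nearest to 0 among the CSL genes (-0.04, SE 0.57).

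Compared by family over all 34 genes, the median log2 difference was 0.25 for EXPA, 0.44 for EXPB, -0.40 for EXLA, -0.12 for XTH and -0.36 for CSL, against 0.05 for all 22746 probe sets. The lone EXLB gene differed by -0.39. Each RNAi group was also set singly against the shared array, which both comparisons use. Over all genes of a family, EXPA had medians of -0.22 in RNAi group 2 and 0.49 in RNAi group 3, EXPB 0.09 and 0.67, EXLA -0.60 and 0.17, EXLB 0.09 and -0.87, XTH 0.13 and -0.48, and CSL -0.51 and -0.51. Without the dim genes under the filter, among which there is no CSL gene and not EXLB1, EXPA, EXLA and XTH each had 1 sign in both RNAi groups and EXPB did not. The medians were then 0.09 and 0.41 for EXPA (6 genes), -0.04 and 0.80 for EXPB (3 genes), -0.79 and -0.68 for EXLA (2 genes), and -0.60 and -1.32 for XTH (5 genes). The 2 EXLA genes went opposite ways in RNAi group 3, with -1.53 for EXLA1 and 0.17 for EXLA2. The CSL median was of 1 sign in both RNAi groups, and the filter could not alter it because it removed no CSL gene. Over all genes of the family, the EXPB median was also of 1 sign. The XTH median was also 0.03 with 16 added to each signal, 0.0 with signals under 32 set to 32, and -0.85 over the 5 XTH genes past the filter. That last median is the value of XTH33, which had a signal under 32 in RNAi group 3 and was -0.64 with the floor. The XTH genes past the filter ranged from -1.45 to 0.24 and the dim ones from -0.12 to 4.23, so the ranges overlapped. Quantile normalisation and median centring turned no family median. The EXPA median was likewise 0.0 with signals under 32 set to 32. These medians carry no test.

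**Figure D3:**
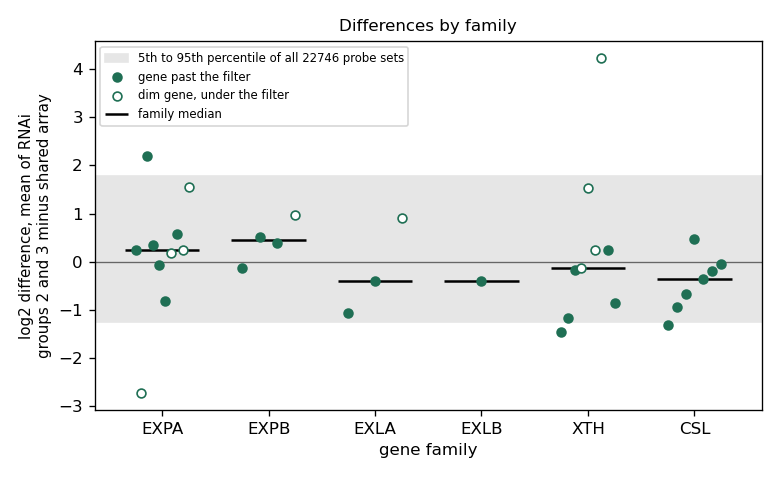
Log2 difference of each gene (mean of RNAi groups 2 and 3 minus the shared array) by family, with filled points for genes past the filter, open points for dim genes and lines for family medians; the grey band spans the 5th to 95th percentile of all 22746 probe sets, -1.25 to 1.78. EXPA8 and XTH29 lie above the band, and EXPA7, XTH16 and CSLA01 below it.

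RNAi groups 2 and 3 were also set against each other, with 1 array each and therefore no test. The median absolute log2 difference between RNAi groups 2 and 3 was 0.73 over the 24 genes past the filter, against 0.46 over all kept probe sets, and 0.78 over all 34 genes, against 0.56 over all probe sets. At least 2-fold higher in RNAi group 2 than in RNAi group 3 were 2 of the 24 genes (8.33%, against 9.54% of kept probe sets): EXPA8, by 3.85-fold, and XTH33, by 5.47-fold. At least 2-fold lower in RNAi group 2 were 4 genes (16.7%, against 7.31%). These were EXPA16 by 3.41-fold, XTH32 by 3.20-fold, EXPA4 by 2.27-fold and EXLA2 by 2.20-fold. None of the 7 CSL genes reached 2-fold in either direction.

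**Figure D4:**
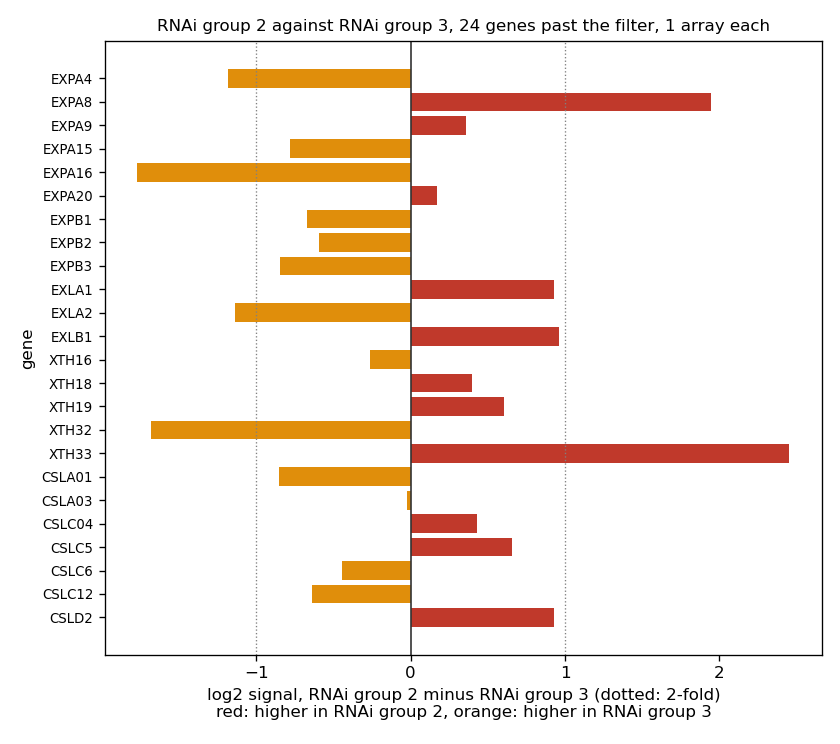
Log2 signal of RNAi group 2 minus RNAi group 3 for the 24 genes past the filter, 1 array each; bars to the right are higher in RNAi group 2 and dotted lines mark 2-fold. EXPA8 and XTH33 pass 2-fold to the right, and EXPA16, XTH32, EXPA4 and EXLA2 to the left.

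Across the 3 arrays, 10 of the 24 genes spanned at least 2-fold from the lowest to the highest array (41.7%, against 22.5% of kept probe sets). They were 4 of the 5 XTH genes, 3 of the 6 α-expansins, both EXLA genes and 1 of the 7 CSL genes, CSLA01. RNAi group 2 was the lowest array for 12 of the 24 genes, against 35.3% of kept probe sets,, and RNAi group 3 for 7 (29.2%, against 34.4%). No α- or β-expansin past the filter was lowest in RNAi group 3, whereas XTH18, XTH19 and XTH33 were. Whether the families differ in this was not tested.

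Other genes that make or organise the wall were looked up from a list of 44 genes for cellulose accessory proteins, xyloglucan, xylan, pectin, lignin and secondary wall regulators. Only 3 had a named probe set, and 0 of the 3 passed the limma test in either direction. COB, a membrane-anchored protein that guides oriented cellulose deposition, had 1508.9 and 1208.5 in RNAi groups 2 and 3, against 1418.6 on the shared array (log2 difference -0.07, SE 0.51). IRX10, listed as GUT2, acts in xylan synthesis and had 141.5 and 146.9, against 129.8 (0.15, SE 0.54). HCT, of lignin synthesis, had 1286.6 and 900.8, against 1394.4 (-0.37, SE 0.53). All of these differences were smaller than their SE.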

How the data were processed

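The authors deposited a linear intensity for each probe set, and the submitters' processing notes name GCOS and MAS5 without versions. The mean after trimming 2% from both ends was 500.05 to 500.06 in each column, so the arrays were not scaled again. Detection calls were not used. Of 22810 rows, 64 held array controls and were dropped. Gene names came from the platform annotation, with symbols brought up to date by the TAIR10.1 reference table. Its coordinates were used only to find which genes are neighbours. The annotation lists 13513 probe sets with 1 gene, 13436 of them matched to that table, and 503 with several. The 2 probe sets shared by several α-expansins were not used.

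Log2 signals were fitted with limma 3.58.1 (R 4.3.3), using eBayes with a trend on intensity. The test was 2-sided and its threshold was 0.05 on the Benjamini-Hochberg adjusted p. Residual degrees of freedom numbered 1 and prior ones 7.45. The lone shared array has no spread of its own and takes that of the 2 RNAi arrays, which may be technical. Genes under the filter took their SE from a fit without it. The number of arrays limits the precision. Signals of different probe sets were not compared as transcript levels.

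Values in full are given for genes past 2-fold in both RNAi groups, or past 2-fold between these groups, the brightest and the least different of each family, EXPA7 and EXPA18. The remaining genes were added so that each of the 34 is accounted for. Genes and lists were chosen with earlier results of these data known. Family medians were taken over all genes of a family. The alternatives were 2 scalings, a floor, an offset, 2 filters, 2 eBayes settings, a 4-column fit, membership by synonym and single arrays left out.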

Additional observations from a re-analysis of the deposited data

How the results depend on the processing

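No gene of these families passed limma under any alternative that gave a test (0 higher, 0 lower). The 5 higher probe sets of the whole array became 0 with quantile normalisation, the floor of 32, the offset of 16, no filter, robust eBayes and the 4-column fit, and 13 without the intensity trend. The 4-column fit counts the shared array in both groups, so by construction it leaves 0 genes above, below or 2-fold away. Shares in parentheses are those of the genes against all probe sets of the same setting. Without a filter 11 genes had both RNAi arrays above (32.4% against 32.3%), 2 were 2-fold higher (5.88% against 5.54%), 2 were 2-fold lower (5.88% against 2.85%), and 4 were 2-fold higher in RNAi group 2 than in RNAi group 3 (11.8% against 15.9%). With the 50th percentile filter 2 had both above (11.1% against 28.7%), and 1 was 2-fold higher in RNAi group 2 than in RNAi group 3 (5.56% against 8.12%). With quantile normalisation or median centring 2 were 2-fold lower, XTH16 and XTH18 (8.33% against 0.458% and 0.496%). Leaving out RNAi group 2 or 3 leaves no residual degrees of freedom, so only values were computed. Without RNAi group 2, 13 genes were above (54.2% against 53.4%), 11 below (45.8% against 46.6%), 2 at least 2-fold higher (8.33% against 3.81%) and 4 at least 2-fold lower (16.7% against 3.95%). Without RNAi group 3 it was 9 (37.5% against 53.5%), 15 (62.5% against 46.5%), 1 (4.17% against 6.29%) and 3 (12.5% against 3.76%). The CSL median of -0.36 was -0.42 with quantile normalisation, -0.43 with median centring, -0.34 with the offset and -0.51 with the 50th percentile filter. It was -0.27 with synonyms and -0.51 with either RNAi group left out, so it was negative in each. Median centring shifts every log2 difference by -0.08, so it could not turn this median positive. The values with an RNAi group left out both use the same shared array. In the 4-column fit the CSL median was -0.24, a value shrunk by construction whose sign could not change. The XTH median of -0.12 was -0.67 with the 50th percentile filter and -0.85 with the 30th, the latter setting chosen after seeing the data. Singly left-out arrays gave -0.60 to 0.17 for EXLA, -0.22 to 0.49 for EXPA, 0.09 to 0.67 for EXPB, -0.87 to 0.09 for EXLB (0.12 when a dim gene joins it by synonym) and -0.48 to 0.13 for XTH. Filtered medians leave out the genes under each filter, the synonym setting adds genes, and the 4-column values shrink by construction. What caused the other shifts was not tested. Of 154 single-gene values under the other alternatives, 5 changed sign or became 0, all of dim genes (EXPA7, EXPA18 and XTH20). By construction, the filters, eBayes settings and 4-column fit could not change a sign. Only the 2 scalings, the floor and the offset could. With an array left out, 12 of 36 values changed sign. These included genes past the filter, among them EXPA4, EXPB3 and EXLB1. Averaging probe sets of a gene changes nothing, since each gene has 1. No paired analysis was possible because a GUS sample has no number to match. Signals under 32 limit the folds of the dim genes.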
